A study of Mus musculus with 8 samples.

Results

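The NR4A, EGR and NFAT genes examined here are 9 transcription factor genes that T cells use when their antigen receptor is engaged: Nr4a1, Nr4a2, Nr4a3, Egr1, Egr2, Egr3, Nfatc1, Nfatc2 and Nfatc3. They were taken by symbol from a deposited expression table of mouse regulatory T (Treg) cells. All 9 were among the 22432 genes listed and among the 13797 genes tested, so no member was lost to the filter on low values. RNA was sequenced from 8 samples, 2 in each of 4 genotypes. WT cells were C57Bl/6 cells with Foxp3-CRE-YFP alone, RelB-KO cells also carried RelB F/F, Nfkb2-KO cells carried nfkb2 F/F, and DKO cells carried both floxed genes. Every group, WT included, thus has the Cre recombinase with its YFP reporter driven from Foxp3, so the genes are lost in Foxp3-expressing cells and other cells of the animals keep them. YFP+ cells sorted from spleen and lymph nodes, which had been pooled, were stimulated for 16 h on a plate coated with anti-CD3 (5 µg/ml), with anti-CD28 (1 µg/ml) and agonist anti-OX40 (2 µg/ml) in solution and with IL-2 (10 ng/ml). No unstimulated sample was analysed here, so the values describe these genes in stimulated cells. The labels give replicates 1 and 2 of each genotype without saying that they came from separate animals, and p-values here measure the spread between these libraries.

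As background, NFAT proteins wait in the cytoplasm until calcium entry activates calcineurin, which removes phosphates from them and lets them enter the nucleus. Egr genes are switched on within minutes through the ERK kinases and serum response factor, and Egr2 and Egr3 are known for holding T cell activation in check. The NR4A receptors are nuclear receptors that act without a known hormone, are induced by antigen receptor signals, and in Treg cells help to keep Foxp3 expressed. Relb and Nfkb2 encode the subunits of the alternative NF-kB pathway, which OX40 and related receptors can activate. Whether losing these subunits changes the level of the activation factors is the question that the comparisons below address.

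Promoter sequence is shown for the 3 NR4A genes, because the results below turn on them, and for Egr2 at the third of its 5 listed start sites, where another motif of immediate-early genes was found. Each window holds the 250 bases before and the first 50 bases after a RefSeq start site (GRCm38.p6), 5′ to 3′ on the gene's own strand. Capitals mark the CRE core TGACG on either strand (so CGTCA as well), the CArG box bound by serum response factor, and the kappa B consensus.
Nr4a1, chr15:101266596-101266895, plus strand: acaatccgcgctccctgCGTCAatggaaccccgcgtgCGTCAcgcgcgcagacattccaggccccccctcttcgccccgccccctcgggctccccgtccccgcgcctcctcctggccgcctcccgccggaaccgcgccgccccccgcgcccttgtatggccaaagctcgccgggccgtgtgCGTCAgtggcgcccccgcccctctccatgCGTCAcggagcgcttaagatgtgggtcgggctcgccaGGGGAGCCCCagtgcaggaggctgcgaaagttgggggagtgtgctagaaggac
Nr4a2, chr2:57123954-57124253, minus strand: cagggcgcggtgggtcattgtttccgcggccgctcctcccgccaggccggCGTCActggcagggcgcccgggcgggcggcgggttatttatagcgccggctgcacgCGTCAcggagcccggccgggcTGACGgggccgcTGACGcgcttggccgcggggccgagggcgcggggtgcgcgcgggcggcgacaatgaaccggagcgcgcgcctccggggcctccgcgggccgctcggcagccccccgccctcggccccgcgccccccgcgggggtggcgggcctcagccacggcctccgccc
Nr4a3, chr4:48045055-48045354, plus strand: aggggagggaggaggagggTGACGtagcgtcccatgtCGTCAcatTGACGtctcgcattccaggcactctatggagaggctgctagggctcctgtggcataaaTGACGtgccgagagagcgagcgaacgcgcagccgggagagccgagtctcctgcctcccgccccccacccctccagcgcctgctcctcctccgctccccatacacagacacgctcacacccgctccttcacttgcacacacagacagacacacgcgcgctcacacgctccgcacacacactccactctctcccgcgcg
Egr2, chr10:67537619-67537918, plus strand: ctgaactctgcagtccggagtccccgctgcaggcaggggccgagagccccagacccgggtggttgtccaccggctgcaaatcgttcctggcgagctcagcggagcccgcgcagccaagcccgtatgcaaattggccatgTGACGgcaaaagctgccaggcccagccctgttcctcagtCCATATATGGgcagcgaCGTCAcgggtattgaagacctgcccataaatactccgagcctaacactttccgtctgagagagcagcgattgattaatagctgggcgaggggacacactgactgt

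Each of the 3 NR4A windows holds 4 matches to the CRE core, the TGACG that CREB family proteins bind. Of 32851 mouse promoter windows of the same length, 20.8% hold at least 1 match, 5.01% 2 or more, 1.03% 3 or more and 0.231% 4 or more. The number 4 is that of the members' own windows, so this last share is a description. This shorter motif was searched after the full CRE, TGACGTCA, had given no match in any member's window, against 1.79% of all windows. In Nr4a1 the matches begin at bases -233, -213, -69 and -40 from the start site, in Nr4a2 at -200, -144, -123 and -111, and in Nr4a3 at -231, -213, -205 and -147. The window of Egr2 at the third start holds 2 CRE cores around a CArG box, which 1.63% of windows hold. The fourth and the fifth Egr2 windows overlap it and contain the same matches, and the second start has a different CArG box match. The window of the first Nfatc3 start holds 1 CRE core, at base -49. A kappa B consensus match begins at base -3 of Nr4a1, and 2 overlapping matches lie in the window of the first Egr2 start, against 8.46% of all windows with at least 1. The NFAT core TTTCC, found in 61.3% of windows, occurs in Nr4a2, Egr2, Nfatc2 and Nfatc3. AP-1 (TGANTCA, 7.81% of windows), NBRE (AAAGGTCA, the NR4A site, 1.51%), the EGR site (GCGTGGGCG, 0.612%) and the MEF2 consensus (0.557%) gave no match in any member's window. All motifs were searched on both strands. Windows were at hand for 6 of the 9 members. A match is a run of letters and shows no binding.

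**Figure D1:**
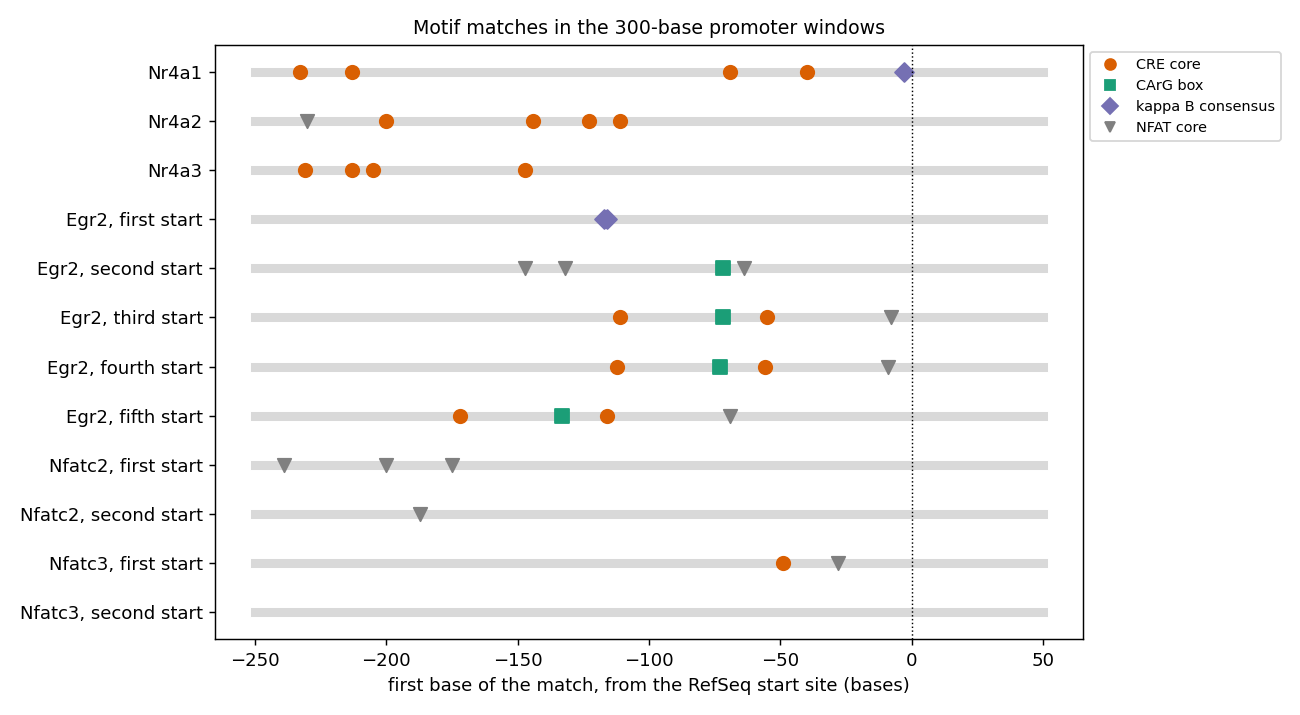
Motif matches in the promoter windows of the 6 members with a window. The x axis gives the first base of each match from the RefSeq start site, each grey bar is 1 window of 300 bases, and symbols stand for the 4 motifs with any match in these windows. The 3 NR4A windows each carry 4 CRE cores.

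The transcripts also differ in the ATTTA pentamer, an element of 3′ untranslated regions known from short-lived messages. Nr4a1 had 3 copies in 543 bases of its annotated 3′ untranslated region, or 5.52 per kb, more per kb than 95.5% of 11721 tested genes. The other 8 members ranged from 0.258 per kb in Nfatc2 to 2.65 per kb in Egr3, around a median of 1.31 over the tested genes. Egr3 (7) and Nr4a3 (5) had more copies than Nr4a1, in longer regions. The longer form TATTTAT, which 30.6% of these genes have, was found in Nr4a2 (1), Nr4a3 (2) and Nfatc2 (1). Nr4a1 had 0.

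Expression is given as the authors' log2 values. The table's header calls them log2 RPKM after batch correction, but un-logged they sum to between 18.2 and 19.7 M per library, so they were not treated as RPKM, and levels were compared within a gene and never between genes. The depth behind each value is unknown because counts were not used here. Sequencing was planned at 30 M reads for each library. Each deleted gene was low where the labels say it was removed. The log2 level of Relb (mean ± SD, n = 2) was 6.44 ± 0.12 in RelB-KO and 6.91 ± 0.24 in DKO cells, while WT stood at 10.58 ± 0.12 and Nfkb2-KO at 10.84 ± 0.01. That of Nfkb2 was 8.77 ± 0.03 in Nfkb2-KO and 9.57 ± 0.40 in DKO cells, while WT stood at 12.71 ± 0.12 and RelB-KO at 12.49 ± 0.26. Foxp3, the defining factor of Treg cells, ranged from 13.95 to 14.28. WT replicate 1 stood apart from the other 7 libraries in genes of the sex chromosomes. Its Xist value was 8.17 and its Ddx3y value 11.60, while every other library had Xist at 14.61 or more and Ddx3y at 4.35 or less. For Nr4a2 and for the genes of the lists that were called against WT, values without that library are also given. The same-numbered libraries deviated together across genes, so the result of a model with replicate number as a block is given beside the main model where it changes a call.

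Among the NR4A genes, Nr4a2 (Nurr1) had the widest range. The gene lies at chr2:57106830-57124003 on the minus strand of mm10 and overlaps no other annotated gene. Its log2 level was 11.15 and 10.36 in WT replicates 1 and 2, 10.75 and 10.36 in RelB-KO, 11.32 and 11.08 in Nfkb2-KO, and 10.43 and 9.87 in DKO cells. Nfkb2-KO cells had the highest mean (11.20 ± 0.17) and DKO cells the lowest (10.15 ± 0.39), and neither library of one reached the other. The WT libraries (mean 10.76 ± 0.56) spanned the RelB-KO ones (10.55 ± 0.27). Nr4a2 was lower in DKO than in Nfkb2-KO cells by 0.89 within replicate 1 and 1.21 within replicate 2. The mean difference was -1.05, or 2.07-fold lower, with a 95% interval from -1.78 to -0.33. It was not called by limma without the block (standard error 0.30, adjusted p = 0.255). With the replicate block it was called lower, with a standard error of 0.12 and an adjusted p of 0.00198. Neither of these groups includes a WT library. In bulk samples such as these, fewer cells with a transcript and less of it per cell cannot be told apart.

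Nr4a2 was also higher in Nfkb2-KO than in RelB-KO cells, by 0.57 within replicate 1 and 0.72 within replicate 2. The mean difference of 0.65 ± 0.30 (standard error) had an adjusted p of 0.474 in limma without the block and 0.0189 with it, where the standard error was 0.12. This comparison uses the same Nfkb2-KO libraries as the one before. Against WT, Nr4a2 differed by 0.44 ± 0.30 in Nfkb2-KO cells (adjusted p = 0.697, or 0.0902 with the block) and by -0.61 ± 0.30 in DKO cells (adjusted p = 0.861, or 0.174 with the block). The 2 WT libraries set both values. Without WT replicate 1 the difference was 0.84 in Nfkb2-KO and -0.22 in DKO cells, and without WT replicate 2 it was 0.05 and -1.0. With the block, the Nfkb2-KO difference was called when WT replicate 1 was left out (0.64, adjusted p = 0.0428) and the DKO difference when WT replicate 2 was left out (-0.81, adjusted p = 0.0321). The authors' deposited table lists Nr4a2 at a log2 fold change of 0.44 with an adjusted p of 0.0276 for Nfkb2-KO and at -0.63 with 0.00184 for DKO against WT. Among the genes to which the authors gave an adjusted p, 6.22% and 1.23% were under 0.05 in those comparisons. For RelB-KO the authors' deposited table gives Nr4a2 -0.22 with an adjusted p of 1, where 0.119% of genes were under 0.05, and no other member was under 0.05 in any of its 3 comparisons.

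Nr4a3 (Nor1), whose product binds the same sites as the other NR4A receptors, followed the same order of genotype means. It lies at chr4:48045153-48086447 on the plus strand. Its log2 level was 12.69 and 12.00 in WT, 12.43 and 12.25 in RelB-KO, 12.73 and 12.60 in Nfkb2-KO, and 12.39 and 11.82 in DKO cells. Nfkb2-KO lay above RelB-KO and DKO without overlap, while WT spanned RelB-KO. DKO was below Nfkb2-KO by 0.34 and 0.78 in the 2 replicate numbers. The mean difference was -0.56, or 1.47-fold lower, with an adjusted p of 0.582 in limma without the block (standard error 0.26) and 0.048 with it (standard error 0.13).

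Nr4a1 (Nur77), widely used as a reporter of antigen receptor signal strength, varied least of the 3. It lies at chr15:101254269-101274795 on the plus strand. It stood at 14.22 and 13.55 in WT, 13.97 and 13.90 in RelB-KO, 14.08 and 14.05 in Nfkb2-KO, and 13.87 and 13.62 in DKO cells. Both knockouts of a single gene were tight, and the WT libraries held both the highest and the lowest value of the 8. DKO differed from Nfkb2-KO by -0.32 ± 0.22, with a 95% interval from -0.83 to 0.20, and this was called neither without the block (adjusted p = 0.775) nor with it (0.315).

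In all 3 NR4A genes replicate 1 was above replicate 2 in every genotype, by between 0.04 and 0.79. The gap was widest in WT, at 0.68 for Nr4a1, 0.79 for Nr4a2 and 0.68 for Nr4a3. Whether the sex-chromosome difference of WT replicate 1 has a part in this gap was not tested.

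**Figure D2:**
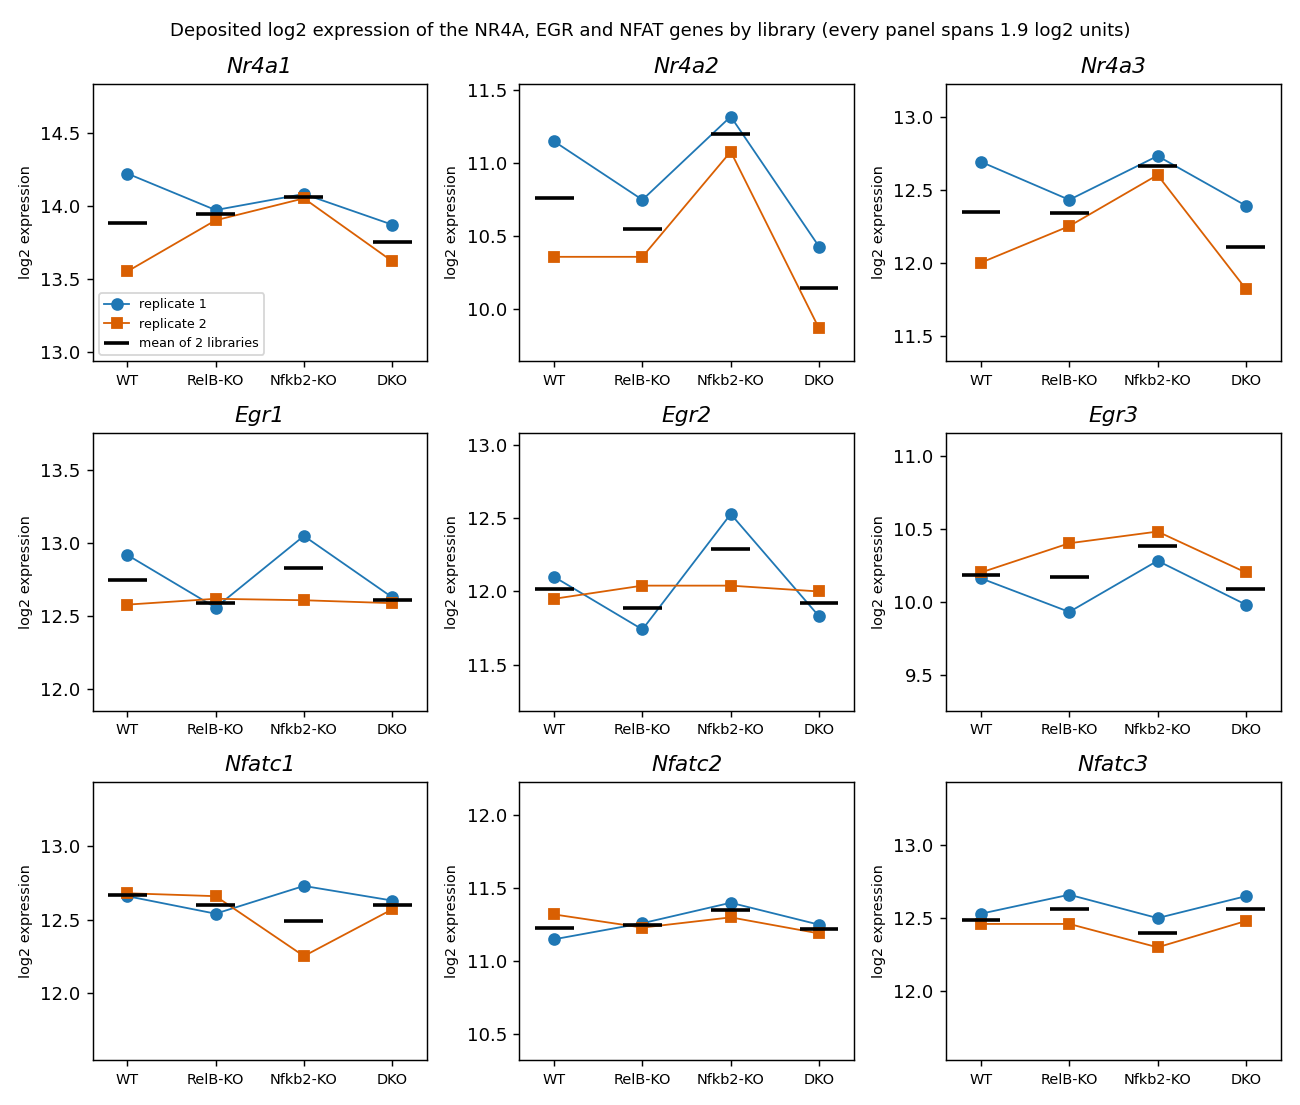
Log2 expression of the 9 genes in each library. The x axis gives the genotype, the y axis the deposited log2 value over the same span in every panel, points joined by lines are libraries with the same replicate number, and bars are means of 2 libraries. Nr4a2 runs from 9.87 in a DKO library to 11.32 in an Nfkb2-KO library, while Nfatc2 stays between 11.15 and 11.40.

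The EGR genes ranged less than Nr4a2 and no difference of theirs was called with all libraries in the model. They lie at chr18:34859823-34864984 (Egr1), chr10:67535475-67542188 (Egr2) and chr14:70077203-70082614 (Egr3), on the plus strand, with no other annotated gene over them. Egr1, the immediate-early zinc finger factor induced through ERK, was at 12.92 and 12.58 in WT, 12.56 and 12.62 in RelB-KO, 13.05 and 12.61 in Nfkb2-KO, and 12.63 and 12.59 in DKO cells. All replicate 2 libraries lay within 0.04 of each other, so the spread between genotypes came from replicate 1. DKO differed from Nfkb2-KO by -0.22 ± 0.17 (limma adjusted p = 0.84, or 0.431 with the block).

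Egr2, which restrains T cell activation together with Egr3, was at 12.10 and 11.95 in WT, 11.74 and 12.04 in RelB-KO, 12.53 and 12.04 in Nfkb2-KO, and 11.83 and 12.00 in DKO cells. The Nfkb2-KO replicate 1 library was the highest, and the 4 replicate 2 libraries were again close. Egr2 was 0.37 ± 0.18 below Nfkb2-KO in DKO cells (limma adjusted p = 0.611, or 0.3 with the block), by 0.70 within replicate 1 and 0.04 within replicate 2. With the block and 1 library left out at a time, the Egr2 difference ranged from -0.67 to -0.07 in DKO vs Nfkb2-KO. In Nfkb2-KO vs RelB-KO it ranged from 0.10 to 0.70. Each was called only without Nfkb2-KO replicate 2, at -0.67 and 0.70.

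Egr3 was at 10.16 and 10.20 in WT, 9.93 and 10.40 in RelB-KO, 10.28 and 10.48 in Nfkb2-KO, and 9.98 and 10.20 in DKO cells. Here replicate 2 was the higher one in every genotype, the reverse of the NR4A genes. DKO lay below Nfkb2-KO by 0.30 and 0.27 in the 2 replicate numbers. This mean difference of -0.29 ± 0.17 was not called (limma adjusted p = 0.702, or 0.173 with the block).

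The NFAT genes varied least. They lie at chr18:80606205-80713071 (Nfatc1, minus strand), chr2:168476410-168601657 (Nfatc2, minus strand) and chr8:106058840-106130537 (Nfatc3, plus strand). Nfatc1 overlaps the antisense gene AC123818.1, and Nfatc3 overlaps Esrp2 and Gm27956 on the opposite strand. The sources used here do not say that counting used strand, so reads in those overlaps cannot be told apart. Nfatc1, whose inducible short form builds up in stimulated T cells, was at 12.66 and 12.68 in WT, 12.54 and 12.66 in RelB-KO, 12.73 and 12.25 in Nfkb2-KO, and 12.63 and 12.57 in DKO cells. One library, Nfkb2-KO replicate 2, was low, and the other 7 lay between 12.54 and 12.73. Nfatc2, the main NFAT of resting T cells, was between 11.15 and 11.40 in all libraries, with genotype means from 11.22 in DKO to 11.35 in Nfkb2-KO cells. Nfatc3 was at 12.53 and 12.46 in WT, 12.66 and 12.46 in RelB-KO, 12.50 and 12.30 in Nfkb2-KO, and 12.65 and 12.48 in DKO cells. It had its lowest mean in Nfkb2-KO cells, where the NR4A and EGR genes had their highest. DKO was 0.16 ± 0.11 above Nfkb2-KO for Nfatc3, with libraries that overlapped (limma adjusted p = 0.795, or 0.308 with the block). NFAT proteins are controlled by where they are in the cell, which these values do not measure.

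Over the 9 members, limma without the block called 0 in each of the 7 comparisons, against 0.00725% of all tested genes in RelB-KO vs WT, 0.341% in Nfkb2-KO vs WT, 0.0145% in DKO vs WT, 0.768% in DKO vs Nfkb2-KO, 0.00725% in DKO vs RelB-KO, 0.797% in Nfkb2-KO vs RelB-KO and 0.00725% in the interaction. At an unadjusted p under 0.05 it gave 1 member, Nr4a2 in DKO vs Nfkb2-KO, and 0 in the other 6 comparisons. With the replicate block, 2 of the 9 were called in DKO vs Nfkb2-KO, both lower, where 5.02% of all genes were called and 2.96% were called lower. In Nfkb2-KO vs RelB-KO 1 was called higher, where 4.46% of all genes were called and 2.78% were called higher. The block called 0 members in Nfkb2-KO vs WT (2.91% of all genes), DKO vs WT (0.0652%), RelB-KO vs WT (0.0145%), DKO vs RelB-KO (0.0145%) and the interaction (0.471%). At an unadjusted p under 0.05 the block gave 2, 1, 0, 1 and 2 members in these 5 comparisons. It gave 4 in DKO vs Nfkb2-KO and 3 in Nfkb2-KO vs RelB-KO. The share of all tested genes at that unadjusted p is not given here, with or without the block. These unadjusted counts therefore stand without a background.

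The calls with the block were lost without some of the libraries. With each of the 8 libraries left out in turn, the call of Nr4a2 in DKO vs Nfkb2-KO was lost only without DKO replicate 2 (adjusted p = 0.0533). That of Nr4a3 was lost without Nfkb2-KO replicate 2 (0.358), DKO replicate 1 (0.129) and DKO replicate 2 (0.356). The call of Nr4a2 in Nfkb2-KO vs RelB-KO was lost without Nfkb2-KO replicate 2 (0.13), RelB-KO replicate 1 (0.109) and RelB-KO replicate 2 (0.0577). A genotype left with 1 library is assumed to vary like the others.

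**Figure D3:**
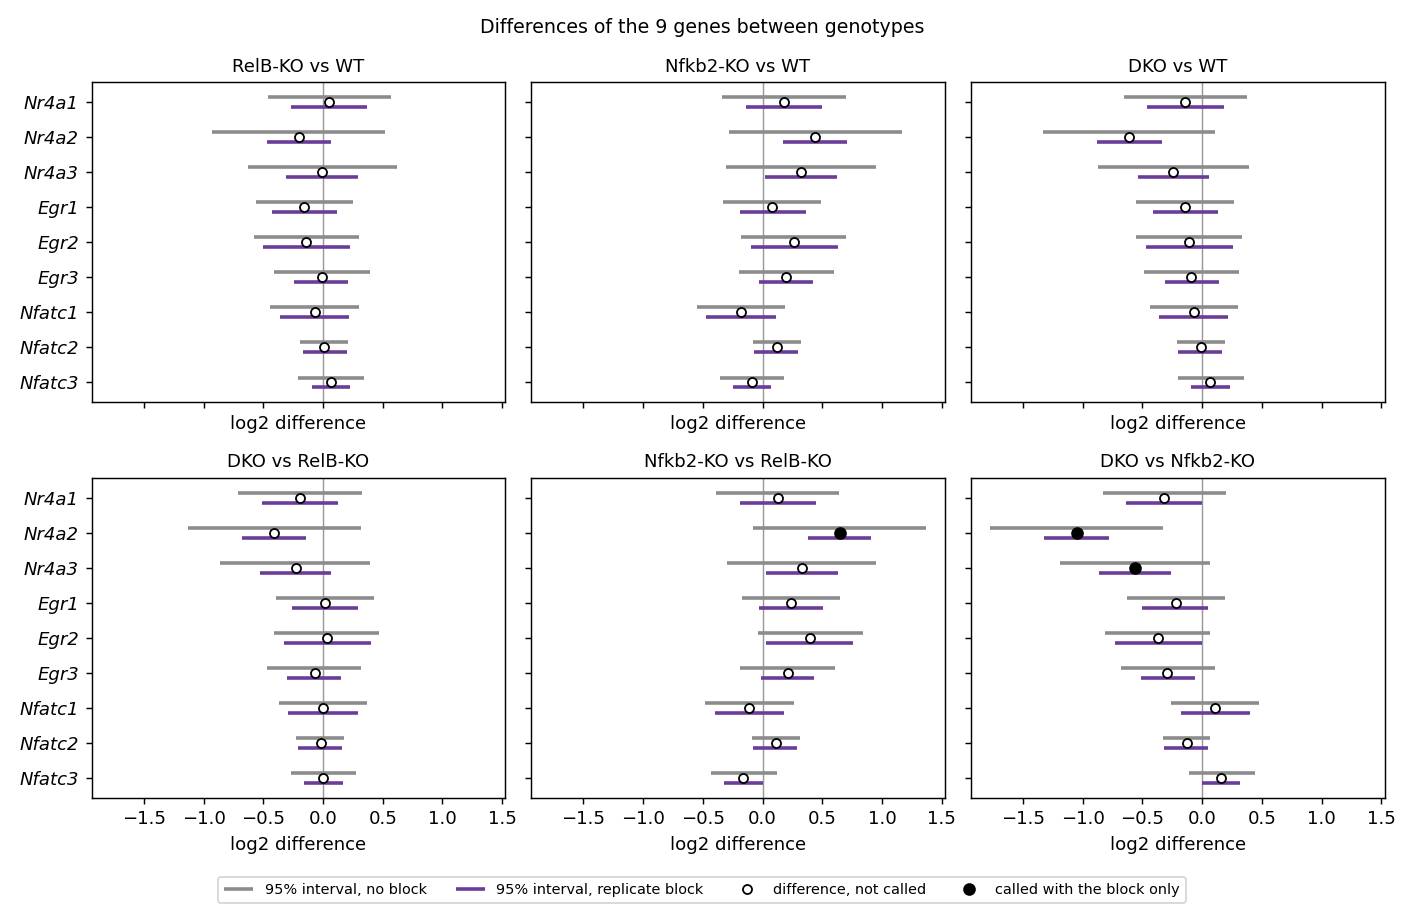
Log2 differences of the 9 genes in 6 comparisons between genotypes. Circles are differences of means of 2 libraries, grey bars 95% intervals of limma without the replicate block and purple bars those with it, and filled circles mark genes called at an adjusted p under 0.05 with the block. Nr4a2 at -1.05 and Nr4a3 at -0.56 in DKO vs Nfkb2-KO and Nr4a2 at 0.65 in Nfkb2-KO vs RelB-KO are the 3 filled circles.

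By direction alone, 6 of the 9 members had both DKO libraries below both Nfkb2-KO libraries: Nr4a1, Nr4a2, Nr4a3, Egr2, Egr3 and Nfatc2. Over all tested genes 17.8% did so. DKO was the lower one within both replicate numbers for 7 of the 9, against 31.5% of all genes. The median difference of the 9 was -0.29, and that of all tested genes was 0.00. In Nfkb2-KO vs RelB-KO, 5 members had non-overlapping libraries that were higher in Nfkb2-KO (the NR4A genes, Egr2 and Nfatc2), against 20.9% of all genes. The Egr2 libraries were apart by only 0.005, a tie at the digits printed. Against WT, non-overlap was rarer. It was 1 higher in Nfkb2-KO (Egr3, against 21.6% of genes), 1 lower in DKO (Nfatc1, 17.6%) and 1 lower in RelB-KO (Nfatc1, 11.0%), by 0.07 on average in both of the Nfatc1 cases. The Nfatc1 gap in RelB-KO vs WT was 0.003, again a tie at the digits printed. In DKO vs RelB-KO it was 1 lower (Nr4a1, 14.3%). DKO vs Nfkb2-KO and Nfkb2-KO vs RelB-KO share the Nfkb2-KO libraries, and the members were not drawn at random, so these shares are given as a description.

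Whether loss of Relb went with a different change in Nfkb2-deficient than in Nfkb2-sufficient cells was tested as an interaction. For Nr4a2 the difference was -1.05 in DKO vs Nfkb2-KO and -0.20 in RelB-KO vs WT, which gave an interaction of -0.85. It was not called (standard error 0.43 and adjusted p = 1 without the block, 0.17 and 0.0864 with it). With the block and each library left out in turn, it ranged from -1.05 to -0.65. It was called only in the fit without WT replicate 1, which gave the -1.05. For Nr4a3 it was -0.55 (adjusted p = 0.375 with the block), and for Nr4a1 -0.37 (0.724). The EGR interactions lay between -0.27 and -0.06 and the NFAT ones between -0.14 and 0.18, none of them called.

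The NR4A genes varied together, as did the EGR genes, but not only along family lines. Over the 8 libraries, with the mean of each replicate number removed, the log2 values of the 3 NR4A genes correlated at Pearson coefficients of 0.79 to 0.94 and those of the 3 EGR genes at 0.80 to 0.95. Egr3 correlated with the NR4A genes at 0.83 to 0.88. Nfatc3 ran opposite to the NR4A genes, at -0.93 to -0.77, and to the EGR genes, at -0.88 to -0.69. The NFAT genes shared little among themselves (-0.35 to 0.38). Egr1 and Egr2 differed between genotypes mainly in replicate 1, so their coefficient of 0.95 rests mainly on the replicate 1 libraries. These coefficients describe values from the same 8 libraries and 4 genotypes, and no p and no background over other genes is given.

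Genes most like the member with the widest range in each family were found the same way, among 780 genes whose genotype means ranged over at least 0.5. For Nr4a2 they included Ltb (0.973) and Lta (0.966), the subunits of lymphotoxin. Ltb had log2 means of 12.81 in WT, 12.37 in RelB-KO, 13.29 in Nfkb2-KO and 12.07 in DKO cells. For Egr2 they were Dnahc7b (0.993), Cdh23 (0.946) and Mboat1 (0.943). For Nfatc1, which ranged over only 0.18, they were Dusp6 (0.85), an ERK phosphatase, Sh2d3c (0.85) and Pou2af1 (0.795). Nfatc1 and Dusp6 were both lowest in the same single library, Nfkb2-KO replicate 2, at 12.25 and 8.07.

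**Figure D4:**
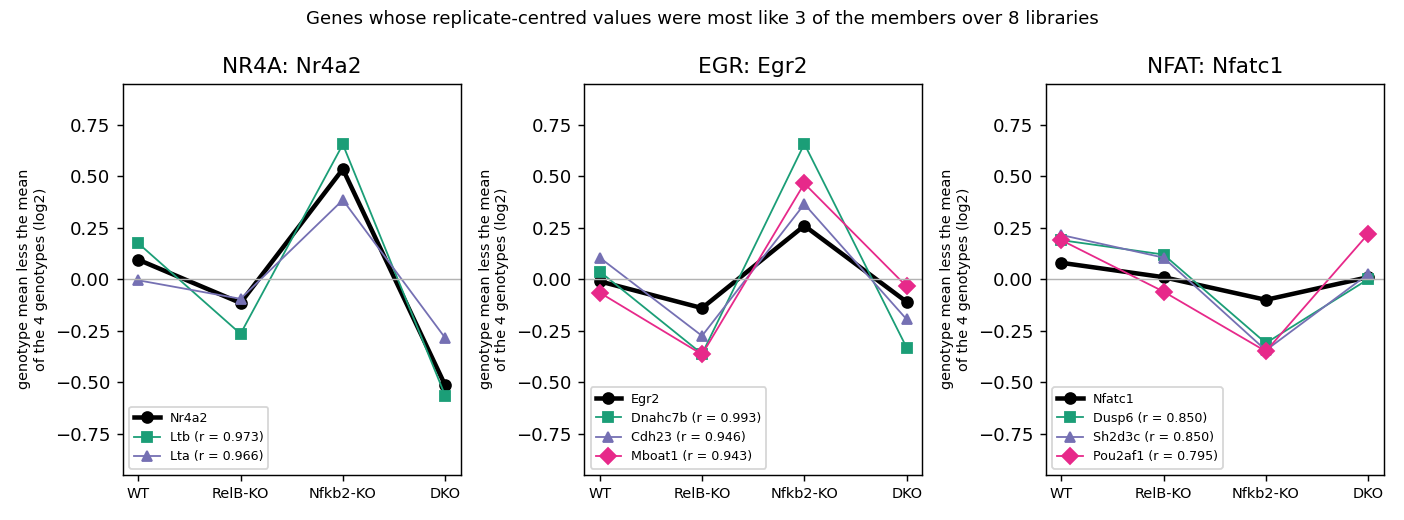
Genotype means of Nr4a2, Egr2 and Nfatc1 and of genes most like each. The x axis gives the genotype, the y axis the mean of 2 libraries less the mean of the 4 genotypes (log2), and the legends give Pearson coefficients over 8 libraries. Nr4a2, Ltb and Lta are all highest in Nfkb2-KO and lowest in DKO cells, a shared order that choosing genes by likeness favours.

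Among the other members of these families, Nfat5, the NFAT that responds to osmotic stress and needs no calcineurin, was at 13.37 and 13.11 in WT, 13.20 and 13.17 in RelB-KO, 13.61 and 13.48 in Nfkb2-KO, and 13.22 and 12.69 in DKO cells. It was 0.59 lower in DKO than in Nfkb2-KO cells, a difference called with the block (limma adjusted p = 0.0204) and not without it (0.31). Egr4 stayed between 5.40 and 5.67, and Nfatc4, near -2.09 in every library, was below the filter. Of the 6 tested genes of this list, which also holds nuclear receptors set beside NR4A, 0 were called without the block in any comparison, and 4 were lower in DKO than in Nfkb2-KO cells, with a median of -0.14.

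The genes upstream of the members were taken by route. Of 25 tested genes of the ERK and serum response factor route and the EGR co-repressors, 0 were called without the block in any comparison, and the median difference was 0.01 in DKO vs Nfkb2-KO and 0.00 in Nfkb2-KO vs WT. With the block Elk3, a partner of serum response factor, was called higher in Nfkb2-KO than in WT (0.55, limma adjusted p = 0.0376) and RelB-KO cells (0.65, 0.014). Of 16 genes of calcium entry and calcineurin, 0 were called without the block when the variance trend was used. Itpr3, a calcium release channel, was the 1 called with it, lower in Nfkb2-KO than in WT (-0.33, limma adjusted p = 0.0403) and RelB-KO cells (-0.36, 0.0245). Against RelB-KO cells it was also called without the block when no trend was used (-0.36 ± 0.04, 0.0447). Stim2, a calcium sensor, had the largest difference of that list in DKO vs Nfkb2-KO, at -0.31 ± 0.10 (0.0862 with the block).

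Of 17 tested brakes on NFAT, 1 was called without the block. Rcan3, a calcineurin regulator, was at 11.05 in both Nfkb2-KO libraries against 11.62 and 11.52 in RelB-KO cells, a difference of -0.52 ± 0.07 (limma adjusted p = 0.0411). That call was lost with any 1 of the 8 libraries left out (0.0796 to 0.238), and with the block it held in 7 of 8 such fits. With the block Rcan3 was also called lower in Nfkb2-KO than in WT (-0.44, 0.0124) and higher in DKO than in Nfkb2-KO cells (0.43, 0.00773). Lrrk2 and Dyrk1a had the largest differences of the list in RelB-KO vs WT (-0.23 ± 0.12) and DKO vs RelB-KO (-0.10 ± 0.18), and neither was called. Ppia, the cyclophilin through which cyclosporin blocks calcineurin, lay between 7.72 and 7.99 in the replicate 1 libraries and between 13.47 and 13.79 in the replicate 2 libraries.

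Of 18 tested genes that partner NR4A or share its programme with TOX, 0 were called without the block. With it, Bcl2l11, which encodes the death protein Bim, was called lower in Nfkb2-KO than in WT (-0.94, limma adjusted p = 0.0327) and RelB-KO cells (-0.84, 0.0383). In DKO vs Nfkb2-KO the block called Creb1, a factor that binds the CRE, lower (-0.35, 0.0308), the histone deacetylase gene Hdac9 lower (-0.55, 0.0359) and Lef1 higher (0.50, 0.0442). The median of this list was 0.02 in that comparison, where the block called 2.96% of all genes lower and 2.07% higher.

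Genes reported as targets of the members were taken as 2 lists. Of 20 reported EGR2 and EGR3 targets, 0 were called without the block and the median was -0.08 in DKO vs Nfkb2-KO. Bhlhe40, a transcription factor gene switched on in activated T cells, had the largest difference, at 13.62 and 13.25 in Nfkb2-KO against 11.94 and 11.38 in DKO cells. Its difference of -1.77 had a limma adjusted p of 0.0882 without the block and 9.98e-05 with it. With the block Dgka, a diacylglycerol kinase that dampens Ras signals, was called lower in Nfkb2-KO than in WT (-0.52, 0.0341) and RelB-KO cells (-0.47, 0.0386). Fasl, the death ligand, was called lower in DKO than in Nfkb2-KO cells (-0.52, 0.019). There the block called 2 of the 20 lower and 0 higher, against 2.96% and 2.07% of all genes. The inhibitory receptor gene Lag3 (0.99, 0.038) was called higher and the cell cycle inhibitor gene Cdkn1b (-0.50, 0.0439) lower in Nfkb2-KO than in RelB-KO cells with the block. In that comparison 3 of the 20 were called higher and 2 lower, against 2.78% and 1.67% of all genes.

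Of 27 reported NFAT targets, 2 were called without the block. Il21, a cytokine gene, was at 6.41 and 6.27 in Nfkb2-KO cells against 5.28 and 5.27 in WT and 5.11 and 5.28 in RelB-KO cells. It was called higher by 1.07 ± 0.12 against WT (limma adjusted p = 0.0435) and by 1.14 ± 0.12 against RelB-KO cells (0.0173). Havcr2, which encodes the inhibitory receptor TIM-3, was at 9.09 and 9.12 in Nfkb2-KO against 8.28 and 8.51 in DKO and 8.29 and 8.23 in RelB-KO cells. It was called lower in DKO than in Nfkb2-KO cells (-0.71 ± 0.10, limma adjusted p = 0.0364) and higher in Nfkb2-KO than in RelB-KO cells (0.84 ± 0.10, 0.0214). Leaving out any 1 of the 8 libraries ended the call of Il21 against WT (limma adjusted p = 0.0574 to 0.275) and that of Havcr2 in DKO vs Nfkb2-KO (0.0758 to 0.207). Both calls against RelB-KO cells held only without a DKO library (0.0276 to 0.121 for Il21 and 0.0279 to 0.141 for Havcr2). With the block these 4 calls held in all 8 fits. With the block 4 targets were called lower and 1 higher in DKO than in Nfkb2-KO cells, against 2.96% and 2.07% of all genes. Xcl1, a chemokine gene, was lower (-1.0, 0.00265), and Icos, a costimulatory receptor gene, was the 1 that was higher (0.78, 0.00791). The median of the 27 was -0.02. In Nfkb2-KO vs RelB-KO the block called 7 of the 27 higher and 1, Icos, lower (-0.54, 0.0429), against 2.78% and 1.67% of all genes, with a median of 0.06. The 7 were Il21, Havcr2, Xcl1 (0.79, 0.008), Il2 (0.71, 0.0257), Irf4 (0.65, 0.0141), Fasl (0.56, 0.0151) and Ifng (0.55, 0.0406). In Nfkb2-KO vs WT it called Il21, Irf4 (0.56, 0.0364) and Havcr2 (0.52, 0.0242) higher and 0 lower, against 1.91% of all genes called higher, with a median of 0.02.

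Of 30 reporters of antigen receptor strength and other immediate-early genes, 0 were called without the block. Their median in DKO vs Nfkb2-KO was -0.18, with 20 of 30 lower, against a median of 0.00 over all tested genes. With the block Atf3, a stress-induced factor (-0.84, limma adjusted p = 0.00483), Junb, an AP-1 subunit (-0.39, 0.0387), and Cd6, a receptor that tunes antigen receptor signals (-0.38, 0.0464), were called lower there. Zfp36, whose product speeds the decay of messages with ATTTA elements, was called higher (0.40, 0.0159). The block called 2.96% of all genes lower and 2.07% higher in that comparison. Jun, another AP-1 subunit, was called higher in Nfkb2-KO than in WT cells with the block (0.81, 0.0323). Klf2, a factor of resting T cells, was called lower in Nfkb2-KO than in RelB-KO cells with the block (-0.67, 0.0256). Some genes stand in more than 1 list, Fasl among both the EGR and the NFAT targets. As a background for all list calls, the block called 2.91% of all tested genes in Nfkb2-KO vs WT. The share was 5.02% in DKO vs Nfkb2-KO and 4.46% in Nfkb2-KO vs RelB-KO.

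Over all these lists, 43 calls of a gene in a comparison were made only with the block, and 4 of them held whichever of the 8 libraries was left out. These were Bhlhe40 in Nfkb2-KO vs WT, DKO vs Nfkb2-KO and Nfkb2-KO vs RelB-KO, and Xcl1 in DKO vs Nfkb2-KO. The other 39 were lost without 1 to 6 of the libraries, with limma adjusted p up to 0.321. Against WT, 12 calls of list genes were made with the block, all in Nfkb2-KO cells. Without WT replicate 1, those of Bhlhe40 (1.09), Irf4 (0.77) and Il21 (1.13) stayed and the others were lost. Jun then stood at 0.55 instead of 0.81 and Bcl2l11 at -0.63 instead of -0.94. The rest of those lost were Elk3 (0.46), Itpr3 (-0.37), Rcan3 (-0.43), Dgka (-0.55), Havcr2 (0.55), Junb (0.34) and Zfp36 (-0.35). Leaving out WT replicate 2 instead also ended calls, those of Elk3, Itpr3, Dgka, Irf4, Havcr2 and Zfp36.

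**Figure D5:**
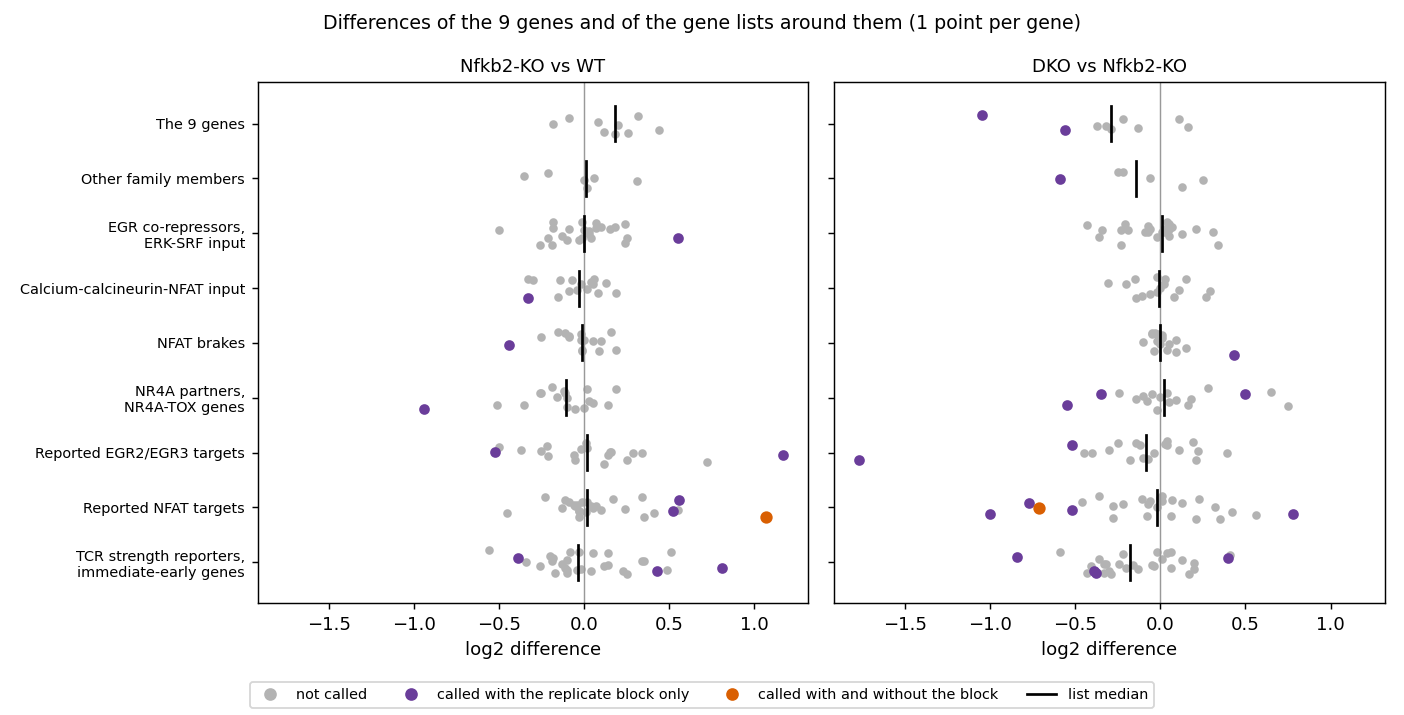
Log2 differences of the 9 genes and of the genes listed around them, in Nfkb2-KO vs WT and DKO vs Nfkb2-KO. Each point is 1 gene, the black line is the list's median, and colour marks genes called at an adjusted p under 0.05 by limma with or without the replicate block. The median of the 9 genes is -0.29 in DKO vs Nfkb2-KO, and the EGR target far to the left there is Bhlhe40 at -1.77.

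Markers of other cells did not differ between genotypes by any call, with or without the block. The summed un-logged level of 7 Treg and T cell markers lay between 17.34 and 17.61 on the log2 scale, with both DKO libraries highest (17.57 and 17.61). Such a sum gives most weight to the genes with the highest values. In DKO vs WT 3 of the 7 were higher and 4 lower, with a median of -0.03. Il2ra, also in the NFAT target list, had the largest difference there, at 0.49 ± 0.13, and was not called. B cell markers summed to between 7.24 and 7.81, also highest in DKO (7.74 and 7.81), with Pax5 listed at 0. The 3 that were tested had a median of 0.01 in DKO vs WT, and Cd79b had the largest difference (0.46, not called). Myeloid markers summed to 7.35 to 7.93, CD8 T and NK cell markers to 8.03 to 8.29, and the erythroid markers to 2.55 to 2.69, with Hba-a1 listed at 0. The part of these small shifts in the results was not tested.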

How the data were processed

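Treg libraries (8, 2 per genotype) were sequenced by the authors. STAR and DESeq2 1.10.1 with mm10 are named in the submitters' processing notes, without their roles, and the counting program and batch method are not given in the sources used here. The deposited values are log2 expression, batch corrected per the file headers. The deposited table holds the authors' own log2 fold changes and adjusted p-values against WT. Their z-scores (8 columns) were not used. Genes listed at 0 in every library (6247) and 1 with a blank cell were left out, and the 13797 genes whose un-logged values averaged 1 or more were tested. limma 3.58.1 (R 4.3.3) was fitted to the 4 genotypes, with empirical Bayes moderation and a variance trend, leaving 4 residual degrees of freedom, or 3 with the replicate block. Benjamini-Hochberg adjusted p under 0.05 over all tested genes was called, separately for each of 7 comparisons. The script was tested on simulated data.

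The planned test depended on the unit; since the values were already log2, limma was fitted to them as deposited. The difference between replicates 1 and 2 correlated across genes between genotypes (Pearson 0.812 to 0.887 in 6 genotype pairs), which is why same-numbered libraries are treated as paired. This comes from the data, not from the labels. The 9 members, the gene lists and the tests were chosen with earlier results of these data known. All members are named. Of each list, genes called without the block, the largest difference in a comparison, and up to 4 genes called only with the block were eligible for naming. Cdkn1b and Cd6 fall outside this rule and were named after their values were seen. Mrtfa (listed under its other name, Mkl1), Hras, Adgre1 and Hbb-bs were not analysed here. Some genes of the lists and of the likeness ranking are not reported here, and list counts are without them. Alternatives were the block, the filter, the pseudocount, the scaling, the variance trend, the groups in the model and leaving out each library. Promoters are from RefSeq (GRCm38.p6), and 3′ untranslated regions from GENCODE on mm10.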

Additional observations from a re-analysis of the deposited data

Results flagged for a closer look

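Bhlhe40, among the reported EGR2 and EGR3 targets, differed between the genetic backgrounds. Its log2 level was 12.47 and 12.05 in WT, 12.31 and 11.46 in RelB-KO, 13.62 and 13.25 in Nfkb2-KO, and 11.94 and 11.38 in DKO cells. DKO vs Nfkb2-KO was more negative than RelB-KO vs WT by 1.4 on the log2 scale, an interaction of -1.4. The test of that difference was called by limma with the replicate block (standard error 0.16, adjusted p = 0.0123) and not without it (0.47, adjusted p = 1). With the block, the call was lost without DKO replicate 1 (-1.4, adjusted p = 0.1) and without DKO replicate 2 (-1.39, 0.163), and it held without any 1 of the other 6 libraries. In the model with the block 0.471% of all tested genes had a called interaction.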

How the results depend on the processing

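With the replicate block, which pairs same-numbered libraries, 2 members instead of 0 were called in DKO vs Nfkb2-KO and 1 instead of 0 in Nfkb2-KO vs RelB-KO. It raised the count over all genes from 47 to 402 in Nfkb2-KO vs WT, from 106 to 693 in DKO vs Nfkb2-KO, from 110 to 615 in Nfkb2-KO vs RelB-KO, from 2 to 9 in DKO vs WT, from 1 to 65 in the interaction, and from 1 to 2 in RelB-KO vs WT and DKO vs RelB-KO. Leaving out libraries in the model with the block was added after seeing the data. In DKO vs Nfkb2-KO, only Nr4a2 stayed called without DKO replicate 1, and neither Nr4a2 nor Nr4a3 did without DKO replicate 2. Without Nfkb2-KO replicate 2, Nr4a3 was lost there and Egr2 was called instead. In Nfkb2-KO vs RelB-KO, Nr4a2 was lost without either RelB-KO library. It was also lost without Nfkb2-KO replicate 2, where Egr2 was called instead. Nr4a2 was called in Nfkb2-KO vs WT and in the interaction without WT replicate 1, and in DKO vs WT without WT replicate 2. In every setting without the block, 0 members were called in all 7 comparisons. Over all genes, the 47 calls in Nfkb2-KO vs WT became 20 without the filter, 15 with a mean log2 value of at least 5, 12 without the trend and 1 with only the groups compared, and the 106 in DKO vs Nfkb2-KO and the 110 in Nfkb2-KO vs RelB-KO became 13 each with only the groups compared. Leaving out 1 library gave 0 to 29, 8 to 58 and 9 to 55 calls in these 3 comparisons and 0 to 13 in the other 4. Of the list calls without the block, that of Il21 in Nfkb2-KO vs WT was lost without the filter (adjusted p = 0.0514), with a mean log2 value of at least 5 (0.0525) and without the trend (0.0668), and that of Rcan3 in Nfkb2-KO vs RelB-KO without the filter (0.0539) and with median centring (0.096). With only the groups compared all 5 were lost (0.0985 to 0.2). Itpr3 in Nfkb2-KO vs RelB-KO was gained without the trend (0.0447) and Il21 in DKO vs Nfkb2-KO with median centring (0.0452).

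Some small differences changed sign. Nfatc1 in DKO vs RelB-KO, at 0.00, went just below 0 when libraries were centred on their medians or quantile normalized, and Nfatc3 there went to -0.01 with quantile normalization. Leaving out 1 library at a time without the block, the log2 differences that changed sign ranged as follows, and the cause was not tested. In RelB-KO vs WT they were -0.29 to 0.39 for Nr4a1, -0.60 to 0.19 for Nr4a2, -0.35 to 0.33 for Nr4a3, -0.33 to 0.02 for Egr1, -0.29 to 0.01 for Egr2, -0.25 to 0.22 for Egr3, -0.07 to 0.09 for Nfatc2 and -0.03 to 0.17 for Nfatc3. In Nfkb2-KO vs WT they were -0.16 to 0.52 for Nr4a1, -0.02 to 0.66 for Nr4a3, -0.13 to 0.30 for Egr1, -0.42 to 0.06 for Nfatc1 and -0.19 to 0.01 for Nfatc3. In DKO vs WT they were -0.48 to 0.20 for Nr4a1, -0.58 to 0.10 for Nr4a3, -0.31 to 0.03 for Egr1, -0.20 to 0.02 for Egr3, -0.10 to 0.07 for Nfatc2 and -0.01 to 0.15 for Nfatc3. In DKO vs RelB-KO they were -0.52 to 0.05 for Nr4a3, -0.02 to 0.05 for Egr1, -0.12 to 0.18 for Egr2, -0.31 to 0.16 for Egr3, -0.06 to 0.06 for Nfatc1, -0.05 to 0.00 for Nfatc2 and -0.10 to 0.10 for Nfatc3. In Nfkb2-KO vs RelB-KO they were -0.02 to 0.44 for Egr3 and -0.35 to 0.13 for Nfatc1, and in DKO vs Nfkb2-KO -0.13 to 0.35 for Nfatc1. In the interaction they were -0.28 to 0.15 for Egr1, -0.48 to 0.01 for Egr2, -0.06 to 0.42 for Nfatc1 and -0.01 to 0.19 for Nfatc3. In DKO vs Nfkb2-KO every member except Nfatc1 kept its sign in every setting run, so this does not set Nr4a2 and Nr4a3 apart. Depth is unknown, and 2 libraries per genotype limit the precision.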
